A study of Mus musculus with 10 samples.

Results

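The 9 genes described here encode parts of the hemidesmosome, of the basement membrane beneath it, or of an integrin that binds this membrane outside hemidesmosomes. They are the integrin subunits Itga6, Itgb4, Itga3 and Itgb1, the laminin chains Lama3 and Lamb3, the transmembrane collagen Col17a1, and the plakins Dst and Plec. They were chosen by name, and each was found in the gene tables of all 10 libraries, which list 25814 genes. RNA had been sequenced from 5 groups of mouse cells with 2 libraries each. Keratinocytes alone were primary cells grown from the tail skin of adult mice in serum-free medium of low calcium, and co-cultured keratinocytes were the same kind of cells kept together with CD8+ T cells, which were washed off before lysis. All T cells were splenic CD8+ cells selected on magnetic beads and activated for 1 d by antibodies to CD3 and CD28. Activated CD8+ T cells were taken at that point, CD8+ T cells in keratinocyte medium were kept for a further 1 d without keratinocytes, and co-cultured CD8+ T cells for a further 1 d with them. By the study's methods, co-cultures held 4 parts of the keratinocyte medium and 1 part of X-VIVO 15, the calcium-containing medium of the T cells, so the addition of T cells and the change of medium cannot be told apart in keratinocytes. For the duration of co-culture the methods state 1 d, but the deposited design text states 1 h. None of the labels says whether the libraries of a group came from separate animals or cultures, so p-values measure the spread between these libraries only. These are bulk samples, in which fewer cells of a type and less RNA per cell cannot be told apart.

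A hemidesmosome fastens a basal keratinocyte to its basement membrane. The integrin α6β4, made from Itga6 and Itgb4, spans the membrane and binds laminin outside, of which Lama3 and Lamb3 encode chains. Inside the cell, plectin (Plec) and the epithelial form of dystonin (Dst) tie the integrin and collagen XVII (Col17a1) to the filaments built from the keratins of Krt5 and Krt14. The integrin α3β1, made from Itga3 and Itgb1, binds the same laminin outside hemidesmosomes, and β1 also pairs with other α chains in many cell types, T cells among them. Inherited loss of several of these proteins causes forms of epidermolysis bullosa, in which the skin blisters.

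The libraries held 12864931 to 18019609 reads on exons. Levels are given as RPKM, in which reads are scaled to exon length and library size, and for an exon length of 1 kb 3 reads make 0.158 to 0.212 RPKM. The cells showed the markers of their labels. The summed RPKM of 8 genes of basal keratinocytes was 13187 and 14838 in keratinocytes alone, 14508 and 18706 in co-cultured keratinocytes, and 1.73 to 93.3 in the 6 T-cell libraries, of which the co-cultured ones were highest. The sum of 8 T-cell genes was 1210 to 2780 RPKM in T cells. In keratinocytes it was 101 and 402 for the libraries alone, and 131 and 710 for the co-cultured ones, so it was higher in both replicates 2. Of these T-cell genes Cd8a and Cd8b1, which define the added cells, stayed at 0.107 to 2.00 RPKM in all 4 keratinocyte libraries. The sum of 6 fibroblast genes reached no more than 2.51 RPKM in any library. That of 4 endothelial genes was 0.620 to 2.96 RPKM in keratinocytes and 3.31 to 22.3 in T cells. Myeloid genes (4) summed to 37.5 to 68.6 RPKM in keratinocytes and 15.0 to 67.1 in T cells. For 6 genes of melanocytes and Schwann cells these ranges were 7.09 to 20.2 and 0.0909 to 5.84 RPKM. For 4 B-cell genes they were 0.531 to 3.85 and 16.6 to 92.3 RPKM. The part of other cells in the results below was not tested.

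In keratinocytes alone the members differed widely in level. Col17a1 was the highest with 147 ± 34.6 RPKM (SD, n = 2), followed by Itga3 with 86.9 ± 16.3, Itgb4 with 85.9 ± 3.20 and Itgb1 with 75.8 ± 20.9 RPKM. Itga6 had 39.8 ± 4.85, Lamb3 24.7 ± 8.53, Lama3 18.0 ± 5.79, Plec 15.3 ± 0.910 and Dst 11.1 ± 0.262 RPKM. The neighbours Itga3, Itgb4 and Itgb1 in this order were not separated by their libraries, nor were Lamb3 and Lama3 or Lama3 and Plec. RPKM is scaled to the exon length, 5.588 kb for Col17a1 and 34.416 kb for Dst. The large number of Dst reads, 7343 and 6370 in keratinocytes alone, thus stands for a low level per length. This length is the one given for the gene, which has 14 annotated transcripts. The transcripts read were not told apart, so the level holds for this length only. Cd151, a tetraspanin that associates with these integrins, had 57.0 and 51.0 RPKM.

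**Figure D1:**
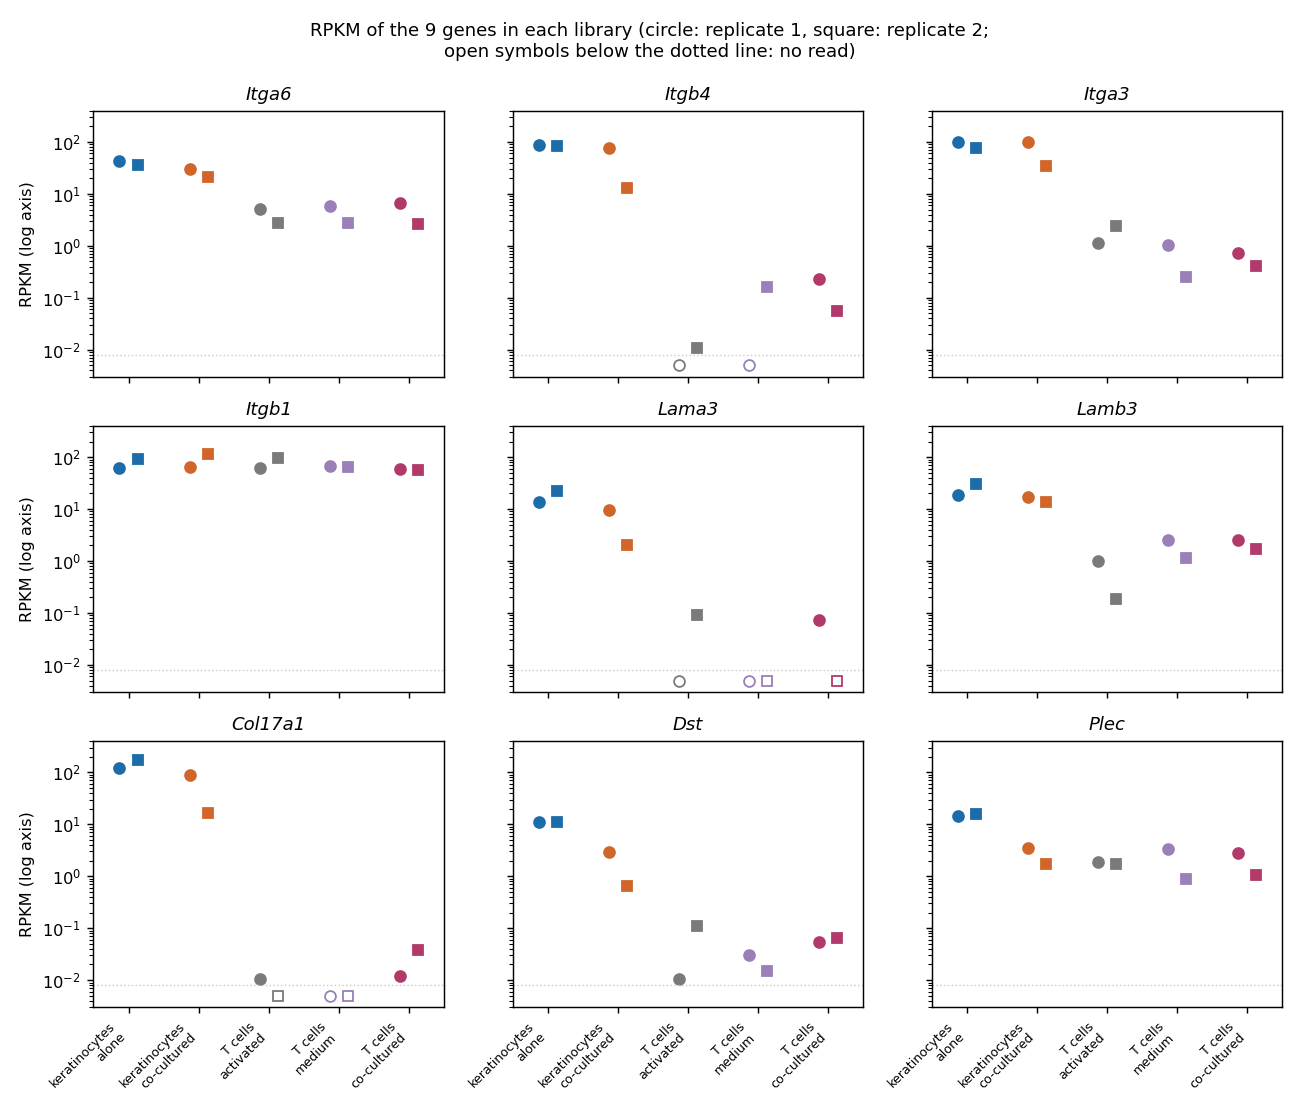
RPKM of each of the 9 genes (1 panel per gene, log axis) in the 10 libraries, with circles for replicate 1, squares for replicate 2 and open symbols below the dotted line for libraries without a read. Itgb1 lay between 56.7 and 113 RPKM in all 10 libraries, whereas Col17a1 had 16.5 to 171 RPKM in keratinocytes and at most 0.0379 RPKM in T cells.

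The α6β4 integrin differed between the cell types mainly through its β chain. Itga6 (ENSMUSG00000027111, chr2:71745616-71858416, plus strand, GRCm38, 31 exons) had 43.2 and 36.3 RPKM in keratinocytes alone and 2.59 to 6.58 RPKM in the T cells, where it was read 207 to 566 times per library. Itgb4 (ENSMUSG00000020758, chr11:115974709-116008412, plus strand, 47 exons) had 88.1 and 83.6 RPKM in keratinocytes alone. In the 6 T-cell libraries 0, 1, 0, 18, 22 and 5 Itgb4 reads were counted, in the order activated, keratinocyte medium and co-cultured. T cells thus carried Itga6 RNA at a level of several RPKM with little or no Itgb4 RNA.

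For the α3β1 integrin the reverse held, since here the α chain separated the cell types. Itga3 (ENSMUSG00000001507, chr11:95044474-95076801, minus strand, 31 exons) had 98.4 and 75.3 RPKM in keratinocytes alone and 0.254 to 2.40 RPKM in T cells. Itgb1 (ENSMUSG00000025809, chr8:128685654-128733200, plus strand, 21 exons) had 61.0 and 90.6 RPKM in keratinocytes alone, 63.3 and 113 in co-cultured keratinocytes, and 62.9 and 95.8 in activated CD8+ T cells. It had 68.4 and 66.0 RPKM in CD8+ T cells in keratinocyte medium and 58.8 and 56.7 in co-cultured CD8+ T cells. Of neighbouring groups in the order of Itgb1 levels, only the last pair did not overlap.

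Both laminin chains were keratinocyte genes. Lama3 (ENSMUSG00000024421, chr18:12333819-12583013, plus strand, 76 exons) had 13.9 and 22.1 RPKM in keratinocytes alone and no read in 4 of the 6 T-cell libraries, with 14 reads in activated replicate 2 and 12 in co-cultured replicate 1. Lamb3 (ENSMUSG00000026639, chr1:193207699-193343878, plus strand, 32 exons) had 18.7 and 30.8 RPKM in keratinocytes alone and 0.190 to 2.59 RPKM in T cells. Its T-cell reads are uncertain. Hsd11b1, which encodes a cortisol-regenerating enzyme, is annotated on the opposite strand within the span of Lamb3 (chr1:193221634-193264075). It had 81 to 463 exon reads in the T cells, of which only 20 to 112 per library were uniquely mapped. In keratinocytes Hsd11b1 had 65 and 205 exon reads alone, and 72 and 377 after co-culture. The strand setting of the counting is not given in the sources used here. Of the Lamb3 reads 55.2 to 83.3% lay in introns in T cells, against 0.763 to 6.87% in keratinocytes.

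Col17a1 (ENSMUSG00000025064, chr19:47646344-47692094, minus strand, 54 exons) showed the greatest contrast. Its 12987 and 16302 exon reads in keratinocytes alone stood against 1, 0, 0, 0, 1 and 3 reads in the T-cell libraries. The plakin Dst (ENSMUSG00000026131, chr1:33908225-34308661, plus strand, 125 exons) had 11.2 and 10.9 RPKM in keratinocytes alone and 0.0104 to 0.109 RPKM in T cells. Plec (ENSMUSG00000022565, chr15:76170974-76232574, minus strand, 51 exons) had 14.6 and 15.9 RPKM in keratinocytes alone and was also read in T cells, at 0.902 to 3.29 RPKM. The annotated span of Plec overlaps that of Parp10, which lies on the same strand and had 102 to 513 exon reads per library.

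The promoters of the most restricted and of the most evenly expressed member are shown because they stand at the ends of this range, together with that of Dst, the longest member. Of the 9 members 5 (Itga3, Itgb1, Lamb3, Col17a1 and Dst) had windows, 8 in all, in the RefSeq promoter table for GRCm38.p6. The 250 bases before the annotated start are given 5′ to 3′ on the strand of the gene, with capitals where the letters GGGCGG, the core of a GC box, or the letters TATAAA were matched on either strand. Where a gene had several windows, the one listed first is shown, at chr19:47692043-47692292 (minus strand) for Col17a1, chr8:128685404-128685653 (plus strand) for Itgb1 and chr1:34011345-34011594 (plus strand) for Dst. The starts are those of RefSeq and can differ from the gene spans given above. The Dst window lies within the span of its gene, and that of Col17a1 overlaps the 5′ end of its span.
Col17a1: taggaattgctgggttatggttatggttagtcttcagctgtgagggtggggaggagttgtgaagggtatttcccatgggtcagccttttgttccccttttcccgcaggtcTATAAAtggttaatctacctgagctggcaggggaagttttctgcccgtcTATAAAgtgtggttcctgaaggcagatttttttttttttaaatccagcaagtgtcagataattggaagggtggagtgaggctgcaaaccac
Itgb1: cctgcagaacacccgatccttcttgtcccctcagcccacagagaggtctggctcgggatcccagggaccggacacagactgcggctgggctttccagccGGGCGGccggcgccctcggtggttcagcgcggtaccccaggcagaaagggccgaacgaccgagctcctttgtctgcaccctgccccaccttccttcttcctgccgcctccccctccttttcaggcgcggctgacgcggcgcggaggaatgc
Dst: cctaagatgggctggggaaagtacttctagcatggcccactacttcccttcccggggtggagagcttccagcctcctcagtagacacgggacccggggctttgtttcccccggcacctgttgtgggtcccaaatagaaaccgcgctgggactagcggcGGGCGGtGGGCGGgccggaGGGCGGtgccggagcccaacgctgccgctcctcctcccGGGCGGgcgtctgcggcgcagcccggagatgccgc
The Col17a1 window held 2 CpG dinucleotides and 46.0% G and C, with 2 matches to TATAAA and none to GGGCGG. The window of Itgb1 held 21 CpG, 68.0% G and C and 1 match to GGGCGG, and that of Dst 22 CpG, 68.8% G and C and 4 matches. Among all 32851 windows of the table the median was 6 CpG, 32.7% held GGGCGG and 12.4% TATAAA. Neither TGANTCA (AP-1) nor TTCNNNGAA (STAT), which 6.75% and 7.02% of all windows held, was found in any of the 8 windows of the members. The other Dst window, at chr1:34160010-34160259, held 5 CpG and 45.2% G and C and none of these motifs. Which of the Dst starts was used in these cells was not examined. A match describes these letters only.

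Keratinocytes alone and activated CD8+ T cells were compared by edgeR's quasi-likelihood test in a fit of all 10 libraries with 13394 genes. Of the 9 members 8 were higher in keratinocytes at an adjusted p (Benjamini-Hochberg) under 0.05, where 22.5% of all genes tested were called higher. Itgb1 was the exception, with a log2 difference of 0.07 ± 0.42 (SE, adjusted p = 0.909), and its direction turned under other scalings. Among the 8, the log2 difference was lowest for Plec with 3.25 ± 0.61 (adjusted p = 0.00422) and Itga6 with 3.52 ± 0.50 (adjusted p = 0.00119). Itga3 with 5.74 ± 0.77 (adjusted p = 0.001) and Lamb3 with 5.55 ± 0.74 (adjusted p = 0.00098) came next. The fitted log2 difference was 7.65 ± 1.15 for Dst (adjusted p = 0.00154) and 8.79 ± 1.58 for Lama3 (adjusted p = 0.00457). Scaled to library size, summed Dst reads were 198 times as frequent in keratinocytes (exact 95% interval of the ratio of counts 154 to 260). Those of Lama3 were 425 times as frequent (253 to 778). These intervals cover counting error only and not the spread between libraries. The activated libraries had 6 and 54 Dst reads, and 0 and 14 Lama3 reads. For Itgb4 and Col17a1 the ratio rests on 1 T-cell read each and was 17136 (3075 to 676861) and 25389 (4556 to 1002850).

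The other genes of the basement membrane and of adhesion are given as 5 lists, which like the members were chosen with results of these data known. In the same comparison 22.5% of all genes tested were called higher in keratinocytes. Of the other laminin chains all 5 tested (8 listed) were called higher, and of basement membrane collagens and linkers 10 of 13 tested (17 listed). So were 5 of 7 other integrin subunits of keratinocytes and 9 of 13 hemidesmosome partners and integrin adaptors, all of them tested. Of matrix proteases and inhibitors 5 of 8 tested (10 listed) were called higher. No gene of these lists was called lower. Those with the greatest log2 difference, at most 4 a list, are named with their mean RPKM in keratinocytes alone, since several had no read in activated CD8+ T cells and a fitted fold is then no measure. The laminin chains were Lama5 with 11.0 RPKM, Lamb1 with 9.14, Lamb2 with 7.18 and Lama4 with 0.303. Of the collagens and linkers, Col4a5, a chain of collagen IV, had 6.37 RPKM, Ntn4 (netrin 4) 4.69, the anchoring fibril collagen Col7a1 3.25 and Fras1 1.94 RPKM, and none of the 4 had a read in activated CD8+ T cells. The integrin subunits were Itgav with 31.3, Itgb5 with 24.9, Itgb6 with 23.9 and Itga2 with 1.32 RPKM. Of the partners and adaptors, the keratins Krt14 and Krt5 had 7979 and 3193 RPKM, Parva (α-parvin) 21.5 and Fermt1 (kindlin-1) 2.73. The protease list was led by the inhibitor Timp3 with 77.7 RPKM and the proteases Mmp14 with 33.7, Bmp1 with 6.95 and Mmp3 with 3.20 RPKM.

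Next, co-cultured keratinocytes were compared with keratinocytes alone, in a fit of these 4 libraries with 12515 genes. None of the 9 members passed an adjusted p of 0.05, and of all genes 0% were called higher and 0% lower by edgeR. The levels of 8 of the 9 were below those of keratinocytes alone by their log2 fold change, as were 48.7% of all genes, with a median of -0.90 for the members and 0.02 for all genes. For 7 members both co-cultured libraries lay below both libraries alone, which held for 24.3% of all genes, and for no member did both lie above, as for 19.8% of all genes. Dst and Plec reached an unadjusted p under 0.05 toward lower levels, as 4.12% of all genes did, and 3.08% did so toward higher levels. A log2 fold change of -1 or less was found for Lama3, Col17a1, Dst and Plec and for 12.5% of all genes.

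The plakins had the lowest co-culture levels relative to keratinocytes alone. Dst had 11.2 and 10.9 RPKM in keratinocytes alone and 2.99 and 0.661 RPKM after co-culture. Plec had 14.6 and 15.9 RPKM alone and 3.53 and 1.68 after co-culture. For both genes every co-cultured library lay below every library alone, and the group means were 6.06 times (Dst) and 5.86 times (Plec) lower. The log2 fold change was -2.57 ± 0.72 (SE) for Dst (adjusted p = 0.658) and -2.50 ± 0.43 for Plec (adjusted p = 0.523). With DESeq2 both passed, with an adjusted p of 0.0143 for Dst and 3.36e-05 for Plec, where DESeq2 called 88 genes higher and 98 lower.

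Col17a1 and Lama3 came next, and for both replicate 2 of the co-culture decided the size. Col17a1 had 122 and 171 RPKM in keratinocytes alone and 89.6 and 16.5 after co-culture. Lama3 had 13.9 and 22.1 RPKM alone and 9.46 and 2.06 after co-culture. The groups did not overlap for either gene, but in replicate 1 the co-cultured level was 73.2% (Col17a1) and 68.2% (Lama3) of that alone, and in replicate 2 it was 9.64% and 9.34%. The log2 fold change was -1.45 ± 0.80 for Col17a1 (adjusted p = 0.658) and -1.62 ± 0.74 for Lama3 (adjusted p = 0.658).

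Of the integrins, Itgb4 had 88.1 and 83.6 RPKM in keratinocytes alone and 78.0 and 12.8 after co-culture, and its partner Itga6 had 43.2 and 36.3 alone and 29.8 and 20.8 after co-culture. Both genes were lower in both co-cultured libraries, Itgb4 by little in replicate 1. Their log2 fold changes were -0.90 ± 0.81 (Itgb4, adjusted p = 0.726) and -0.59 ± 0.31 (Itga6, adjusted p = 0.658). Itga3 had the same level of 98.4 RPKM in replicate 1 of both groups, and 75.3 alone against 35.0 after co-culture in replicate 2, with a log2 fold change of -0.34 ± 0.53. Itgb1 was the 1 member with a value above 0, with 0.31 ± 0.47, and its groups overlapped. The laminin chain Lamb3 had 18.7 and 30.8 RPKM alone and 17.4 and 13.6 after co-culture, which did not overlap, with a log2 fold change of -0.62 ± 0.37 (adjusted p = 0.659). Cd151 had 59.2 and 92.1 RPKM after co-culture, both above its levels alone, with a log2 fold change of 0.58 ± 0.37 (adjusted p = 0.670).

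**Figure D2:**
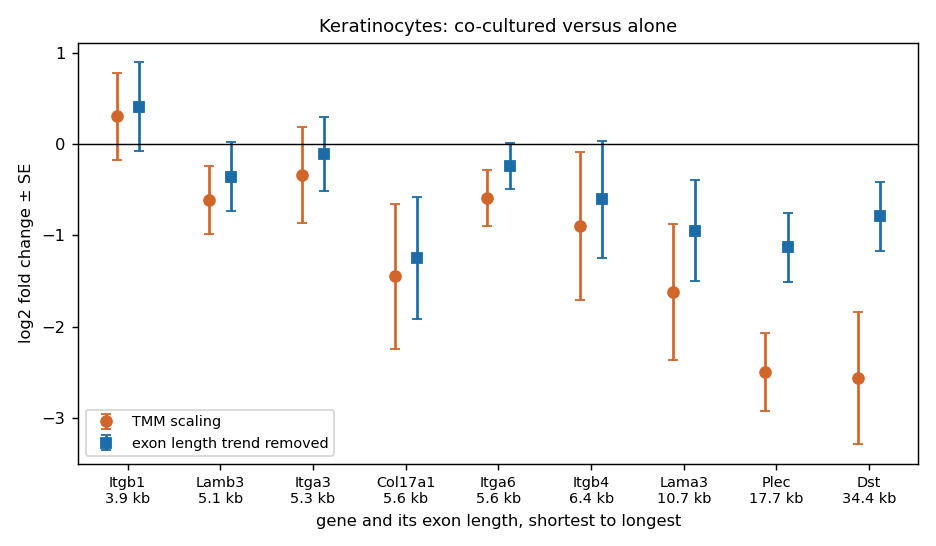
Log2 fold change ± SE of the 9 genes in co-cultured keratinocytes versus keratinocytes alone (4 libraries, edgeR), ordered by exon length, with TMM scaling (circles) and after the trend of fold change with exon length was removed (squares). Dst moved from -2.57 to -0.79 and Plec from -2.50 to -1.13, whereas Col17a1 moved only from -1.45 to -1.25.

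The fold change between these groups followed the exon length of genes, and most members are long. Over all genes tested the median log2 fold change was 0.38 for 575 genes with exons under 1 kb, 0.34 from 1 to 2 kb, 0.13 from 2 to 4 kb, -0.23 from 4 to 8 kb, -0.81 from 8 to 16 kb and -1.47 for 38 genes over 16 kb. Itgb1 with 3.896 kb is the only member under 4 kb. Lamb3, Itga3, Col17a1, Itga6 and Itgb4 lie between 5.125 and 6.384 kb, and Lama3 has 10.745 kb. Plec with 17.666 kb and Dst with 34.416 kb belong to the longest genes. These are lengths given for the gene, with 20 (Plec) and 14 (Dst) annotated transcripts. Which transcripts were read was not examined, so length classes and length-corrected values rest on the gene length. The share of genes with both co-cultured libraries below both libraries alone was greater for longer genes, with 12.8% from 1 to 2 kb, 32.8% from 4 to 8 kb, 51.8% from 8 to 16 kb and 68.4% over 16 kb. Among genes of their own length class, Col17a1 stood at percentile 7.09 of log2 fold change, Lama3 at 16.2, Dst at 18.4, Itgb4 at 19.9 and Plec at 21.1. Lamb3 stood at 30.2, Itga6 at 31.5, Itga3 at 44.9 and Itgb1 at 62.4.

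When the trend with exon length was removed in the fit, the order of the members changed and none was called. Col17a1 then had the lowest value with -1.25 (adjusted p = 0.658), followed by Plec with -1.13 (adjusted p = 0.629), Lama3 with -0.95 and Dst with -0.79 (adjusted p = 0.635). Itgb4 had -0.60, Lamb3 -0.35, Itga6 -0.23, Itga3 -0.11 and Itgb1 0.41. The signs were those found with the trend left in, and the median of the 9 was -0.60. Removal of the trend thus took more than 1 log2 unit from Dst and Plec and little from Col17a1.

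**Figure D3:**
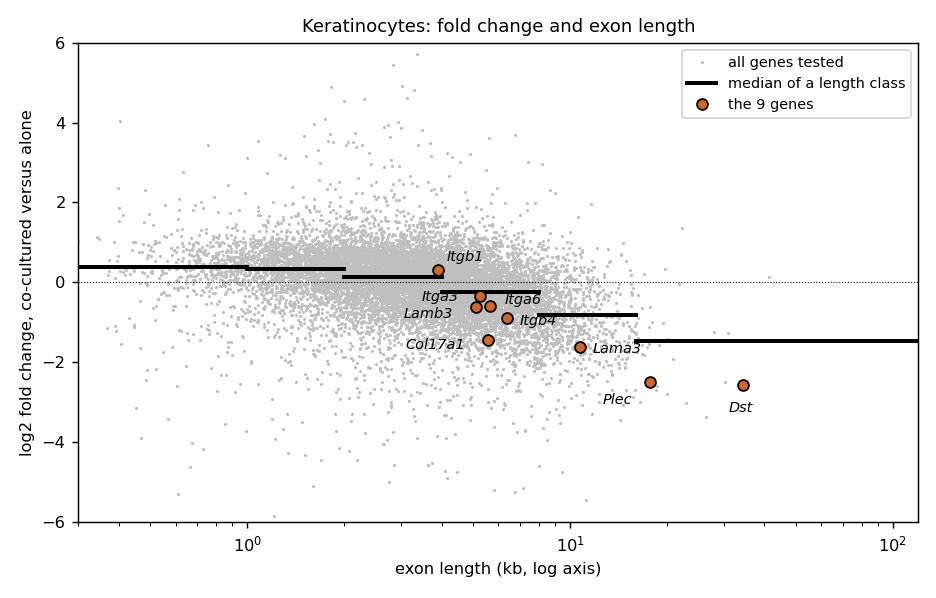
Log2 fold change in co-cultured keratinocytes versus keratinocytes alone against exon length (log axis) for the 12515 genes tested (grey, 44 lie outside the axes), with the median of each length class (bars) and the 9 genes (circles). The medians run from 0.38 under 1 kb to -1.47 over 16 kb, and all members but Itgb1 lie below the median of their class.

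Replicate 2 of the co-cultured keratinocytes stood apart for most members. Within replicate 1 the co-cultured level was 88.5% of that alone for Itgb4, 93.2% for Lamb3, 69.1% for Itga6 and 104% for Itgb1, and the lowest were Dst with 26.6% and Plec with 24.1%. Within replicate 2 it was 15.3% for Itgb4, 44.3% for Lamb3, 57.2% for Itga6, 6.08% for Dst and 10.6% for Plec, but 125% for Itgb1. Without co-cultured replicate 2, Itgb4 had a log2 fold change of -0.15, Col17a1 -0.73, Dst -1.90 and Plec -2.13, while 21 genes were called higher and none lower. Without co-cultured replicate 1, in a fit that assumes that the lone library varies like those alone, 107 genes were called higher and 1057 lower, among them Itgb4, Lama3, Col17a1, Dst and Plec (adjusted p = 0.00633 to 0.0146). In this library the summed T-cell markers were also highest among keratinocytes (710 RPKM), and the summed markers of differentiating keratinocytes lowest, 97.3 RPKM against 701 in co-cultured replicate 1 and 2327 and 3000 alone. Their part in the result was not tested. Of the 8 basal markers 5 were below 0 by log2 fold change, as were 48.7% of all genes. Their median was -0.53, and -0.39 with the trend with exon length removed. Trp63, Dsg3, Dsc3 and Cdh3 were lower in both co-cultured libraries, as were 24.3% of all genes. In replicate 2 Dsc3 had 37.2 RPKM against 158 alone and Cdh3 5.12 against 38.1. Krt14 and Krt5, which code for the keratins that hemidesmosomes anchor, were not lower there, with 11836 and 3812 RPKM against 8719 and 2837 in replicate 2 alone.

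Ratios between partner genes within a library do not depend on its depth, but the trend with exon length was not removed from them. Lama3 has 10.745 kb and Lamb3 5.125 kb, and Dst 34.416 kb and Plec 17.666 kb. The part of exon length in these ratios was not tested. Itga6 to Itgb4 was 0.490 and 0.435 in keratinocytes alone, 0.383 in co-cultured replicate 1 and 1.63 in co-cultured replicate 2. Lama3 to Lamb3 was 0.741 and 0.717 alone, and 0.542 and 0.151 after co-culture. Col17a1 to Itgb4 kept within 1.15 to 2.05, although both genes varied several times over. Dst to Plec was 0.683 to 0.847 in 3 libraries and 0.392 in co-cultured replicate 2. With 2 libraries against 2, an exact permutation test of a ratio cannot give a p below 0.333, and none was run.

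**Figure D4:**
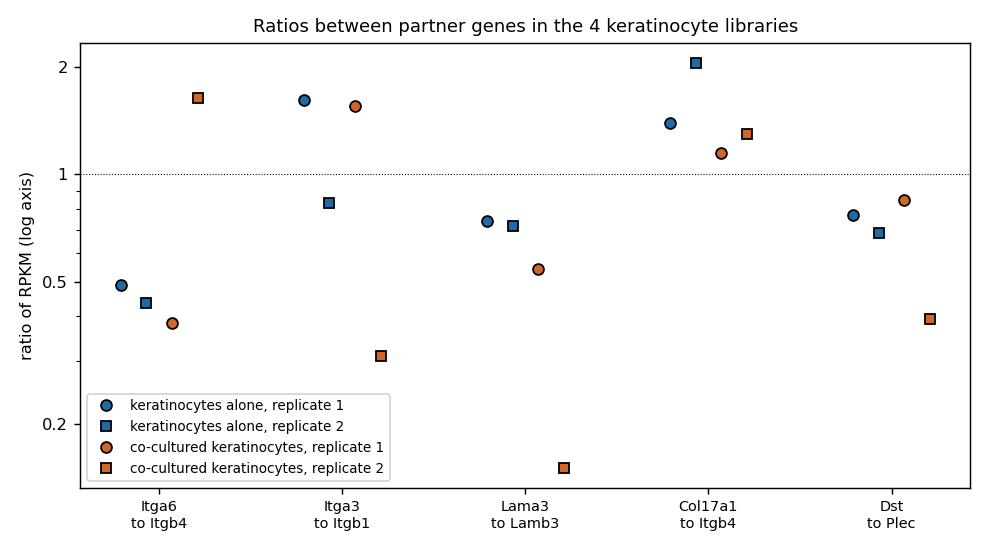
Ratio of the RPKM of partner genes (log axis) in the 4 keratinocyte libraries, with circles for replicate 1 and squares for replicate 2. Co-cultured replicate 2 stands apart for Itga6 to Itgb4 (1.63), Itga3 to Itgb1 (0.309), Lama3 to Lamb3 (0.151) and Dst to Plec (0.392), and lies among the others for Col17a1 to Itgb4. The trend with exon length was not removed from these ratios.

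The share of intron reads was highest in the same library for 8 of the 9 members. Over all genes it was also highest there, at 3.05% against 1.84 to 2.75% in the other keratinocyte libraries. Of the Lama3 reads 8.52% lay in introns in co-cultured replicate 2, against 0.787 to 1.47% in the other 3 keratinocyte libraries. For Dst this share was 12.2% against 2.48 to 3.22%, and for Lamb3 6.87% against 0.763 to 1.52%. Hsd11b1, annotated within the span of Lamb3, also had its most keratinocyte exon reads there (377), and its part was not tested. For Itgb1 the intron share was 1.05% against 0.645 to 0.821%, and for Itga6 35.2% against 26.1 to 33.6%. Itga3 was the exception, with 0.361% against 0.133 to 0.406%. The share of Col17a1 exon reads that crossed an exon junction was 25.3% in this library and 43.7 to 48.2% in the others, whereas for Lama3 and Dst the junction shares of all 4 libraries lay within 36.3 to 37.9% and 12.9 to 14.6%.

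Other genes of the basement membrane gave similar values in this comparison, and none passed an adjusted p of 0.05. Of the other laminin chains 5 were tested, and all 5 were below 0 and did not overlap toward lower levels, with a median log2 fold change of -1.14. Such lower levels without overlap were found for 24.3% of all genes and 32.8% of those with exons of 4 to 8 kb. Lama5 had 10.4 and 11.5 RPKM alone and 3.88 and 0.548 after co-culture, and Lamc1 9.29 and 11.4 alone and 6.02 and 3.40 after co-culture. Of 13 basement membrane collagens and linkers 12 were below 0 and 10 did not overlap toward lower levels, with a median of -1.64. Here Col18a1 (collagen XVIII) had 69.5 and 95.3 RPKM alone and 56.4 and 27.4 after co-culture, and Dag1 (dystroglycan) had a mean of 29.7 ± 6.72 alone and 16.5 ± 10.7 after co-culture (SD, n = 2). The members of these lists are long as well, with a median exon length of 6.834 and 7.021 kb, and after removal of the length trend the medians were -0.72 and -1.15.

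The remaining lists held values nearer to 0. Of 6 other integrin subunits tested all 6 were below 0, with a median of -0.80, and Itgav had 39.1 and 23.5 RPKM alone and 24.9 and 7.84 after co-culture. Itgb5 had 20.1 and 29.8 RPKM alone and 14.4 and 12.5 after co-culture. Of 13 hemidesmosome partners and integrin adaptors 8 were below 0, with a median of -0.05. In this list 3 genes (Cd151, Krt5 and Lims1) were higher in both co-cultured libraries, beside 19.8% of all genes, and 5 (Erbin, Fermt1, Tln1, Pxn and Zyx) were lower in both, beside 24.3%. Krt14 had a log2 fold change of 0.39 and Krt5 of 0.46 in this list. Of 8 matrix proteases and inhibitors 6 were below 0 (median -0.61), with Timp2 at 195 and 76.0 RPKM alone and 96.4 and 30.8 after co-culture. Timp3 had 86.9 and 68.6 RPKM alone and 72.7 and 39.5 after co-culture, but only 400 of its 8149 exon reads in replicate 1 alone were uniquely mapped.

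In T cells no member passed the test in any of the 3 comparisons. The 6 T-cell libraries were fitted together with 11863 genes, of which 8 members were tested, since Col17a1 with at most 3 reads was filtered. Between CD8+ T cells in keratinocyte medium and activated CD8+ T cells, 2.32% of all genes were called higher and 4.22% lower, and no member was called. Between co-cultured and activated CD8+ T cells these shares were 4.59% and 5.72%, again without a member. Between co-cultured CD8+ T cells and those in keratinocyte medium, 0.261% were called higher and 0% lower (89 genes were lower at an unadjusted p under 0.05, and DESeq2 called 8), and no member passed.

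None of the integrin chains that T cells express passed the test. Itgb1 differed from activated CD8+ T cells by a log2 fold change of -0.10 ± 0.32 in keratinocyte medium and -0.27 ± 0.32 in co-culture, where both libraries lay below both activated ones. Itga6 had 5.01 and 2.74 RPKM in activated CD8+ T cells, 5.94 and 2.76 in keratinocyte medium and 6.58 and 2.59 in co-culture, so that the libraries of each group differed more than the groups. Itga3 had 1.14 and 2.40 RPKM in activated CD8+ T cells and 0.254 to 1.02 RPKM in the other 4 libraries, below both, which held for 32.5% (keratinocyte medium) and 33.9% (co-culture) of all genes. It had log2 fold changes of -1.39 ± 0.77 in keratinocyte medium (adjusted p = 0.314) and -1.46 ± 0.78 in co-culture (adjusted p = 0.259).

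Lamb3 had the smallest p of the members in T cells. It had 1.01 and 0.190 RPKM in activated CD8+ T cells, 2.51 and 1.16 in keratinocyte medium, and 2.59 and 1.67 in co-culture. Every library of the later groups lay above both activated libraries, as held for 22.1% (keratinocyte medium) and 23.6% (co-culture) of all genes, with log2 fold changes of 1.76 ± 0.76 (adjusted p = 0.197) and 2.03 ± 0.77 (adjusted p = 0.129). Hsd11b1, annotated within the span of Lamb3, had 81 and 285 reads in activated CD8+ T cells, 432 and 463 in keratinocyte medium and 407 and 286 in co-culture. Most of these reads were not uniquely mapped. The part of Hsd11b1 in the Lamb3 reads was not tested. Plec differed by 0.34 ± 0.60 in keratinocyte medium and 0.26 ± 0.60 in co-culture.

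Of the other lists, the integrin adaptor Ilk (integrin-linked kinase) rose in both groups. It had 12.7 and 11.9 RPKM in activated CD8+ T cells, 45.4 and 40.9 in keratinocyte medium and 47.7 and 39.9 in co-culture, with log2 fold changes of 1.95 ± 0.29 (adjusted p = 0.0149) and 2.02 ± 0.29 (adjusted p = 0.00812). Its binding partner Lims1 rose in co-culture by 1.40 ± 0.34 (adjusted p = 0.0406), with 12.1 ± 2.70 RPKM in activated cells and 28.1 ± 0.354 in co-culture (SD, n = 2), and had 24.9 and 32.0 RPKM in keratinocyte medium, which missed the threshold (adjusted p = 0.0531). No gene of the laminin, collagen, integrin or protease lists was called in T cells.

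RNA typical of keratinocytes was found in the co-cultured T cells. Krt14 had 61.6 and 16.8 RPKM there, against 0.350 to 1.06 in the other 4 T-cell libraries, and was called higher than in activated cells with a log2 fold change of 6.47 ± 0.84 (adjusted p = 0.00693), as was Krt5 with 4.52 ± 0.88 (adjusted p = 0.0193). The level of Krt14 in co-cultured T cells was 0.439% of its mean in the 4 keratinocyte libraries and that of Krt5 0.110%. Of the other basal markers, Perp stood at 1.20% and the rest at 0 to 0.302%. Genes of differentiating keratinocytes stood higher, at 1.48 to 146%. Sprr1a had 429 and 306 RPKM in co-cultured T cells and 78.5 to 2910 in keratinocytes, with at most 2 reads in the other T-cell libraries. Klk7, at 146% of its keratinocyte mean, had 56.3 and 51.1 RPKM in co-cultured and no read in the other T cells. Lor stood at 51.8% and Flg at 84.2%, both on few reads. Krt1, Ivl and Dsg1a stood at only 2.19, 1.83 and 1.48%. Krt10 stood at 137%, but at 79.5% already in activated CD8+ T cells. Keratinocyte genes thus differed widely in this percentage. Among the members, this percentage was 0.215 for Itgb4, 0.0248 for Col17a1, 0.309 for Lama3 and 0.925 for Dst, and much higher for Lamb3 (10.6), Itga6 (14.1), Plec (21.5) and Itgb1 (70.4). Dst stood at 0.926% and these 4 genes at 2.98, 11.9, 19.9 and 96.7% already in activated CD8+ T cells, which had not met keratinocytes, whereas Itgb4 and Col17a1 stood at 0.00829 and 0.00532%. In reads, Itgb4 had 22 and 5 and Col17a1 1 and 3 in co-cultured T cells, which allows no finer statement.

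Whether co-culture had different effects in the cell types was tested by an interaction term in a fit of 8 libraries (13202 genes), as the co-culture effect in keratinocytes minus that in T cells relative to keratinocyte medium. No member was called, where 0.053% of all genes were called higher and 0.523% lower. Dst came nearest with a difference of -4.07 ± 0.92 on the log2 scale (adjusted p = 0.176), from a keratinocyte effect of -2.57 and a T-cell effect of 1.47 that rests on 9 to 32 reads per library. Plec differed by -2.45 ± 0.90 (adjusted p = 0.598) and Itgb1 by 0.48 ± 0.58. The difference for Dst passed with DESeq2 (adjusted p = 0.00172), without a filter on low counts (adjusted p = 0.0295) and without co-cultured keratinocytes replicate 1 (adjusted p = 0.0176).

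The members fell apart into several patterns over the 10 libraries. For each, the 2 genes with the most similar profile were sought among 8735 genes with a mean of at least 5 RPKM in 1 group, by the root mean square distance between centred log2(RPKM + 1) values. Dst lay nearest to the laminin chain Lama5 (distance 0.109) and to Nhsl1 (0.154). Itgb4 lay nearest to Cavin1 (0.173) and Amotl2 (0.195), and Cavin1, a coat protein of caveolae, was also next nearest to Col17a1 (0.305) after AA986860. Itga3 lay nearest to Ptgs2 (0.273), which encodes an inducible cyclooxygenase, and to F3 (0.304), which encodes tissue factor. Lama3 was nearest to Irx3 (0.202) and Galnt18 (0.206), Lamb3 to Aldh1l1 (0.234) and Fbln1 (0.350), Itga6 to Pam (0.257) and Tom1l2 (0.262), Plec to Golga4 (0.258) and Bcl9l (0.304), and Itgb1 to Pttg1 (0.162) and Mkrn2 (0.192). Between members the distance was 0.365 for Col17a1 and Itgb4, 0.441 for Itga6 and Lamb3, and 3.10 for Col17a1 and Itgb1. These profiles share their libraries and are dominated by the difference between cell types, so the distances are descriptions without a test.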

How the data were processed

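Poly(A) libraries were prepared by the authors with the NEBNext Ultra II kit from 10 RNA samples and read single-end on a HiSeq2500. The reads were mapped to GRCm38 in the CLC Genomics Workbench at its defaults. Neither the annotation release nor the strand setting is given in the sources used here. The deposited tables hold, per library and gene, counts of reads on exons, which are not normalized, and RPKM values, which the authors' software derived from exon reads, exon length and mapped reads. Groups were taken from the labels. Replicate numbers of keratinocytes and activated T cells are those of the labels, whereas the other T cells were numbered in sample order, as names only.

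Members were matched by name. Log2 fold changes, SEs and p-values were computed from exon read counts in R 4.3.3 with edgeR 4.0.16 (filterByExpr, TMM, glmQLFit and glmQLFTest), and p-values were adjusted by Benjamini-Hochberg over all genes tested (threshold 0.05). Keratinocytes (4 libraries) and T cells (6 libraries) were fitted apart, keratinocytes alone versus activated T cells in a fit of 10 libraries, and the interaction in 8. To remove the length trend, a lowess curve of each library's deviation from the gene mean against log2 exon length was used as an offset. Each choice was varied in turn. The test was replaced by DESeq2 1.42.0 or by limma 3.58.1 on RPKM values on the log2 scale (pseudocount 1 or 0.1). Scaling by TMM was replaced by library size, the filter was dropped or set to 10 counts in each library, and uniquely mapped reads were used for all reads (78.2 to 87.2% of them). Further fits added a replicate block, used another set of libraries or left out 1 library. Counting intervals are exact. They and the floors of 3 reads do not cover more than counting error, because molecular identifiers were not used. Promoter sequences are those of RefSeq. Tables and plots were made in Python 3.11.15 (pandas 2.3.3, numpy 2.4.6, matplotlib 3.10.9, scipy 1.17.1).

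The members, the lists and the tests were chosen with earlier results of these data known. Of the lists, those genes are named that passed in the comparison described (at most 4 per list) or, where none did, the 2 with the highest mean RPKM, and Cd151 always. For T cells, lists without a call are given by count only, and markers were named after their values were seen. One gene is not reported here.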

Additional observations from a re-analysis of the deposited data

How the results depend on the processing

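In keratinocytes (co-cultured versus alone) 0 genes were called by edgeR, 186 by DESeq2, 11 without a filter and 4 with 10 libraries in the fit, and 0 to 1164 with 1 library left out. Leaving out 1 library gave log2 fold changes of -1.18 to 0.17 for Itga3 and -0.28 to 0.70 for Itgb1, which turned without co-cultured replicate 2. The other members kept their direction under all alternatives run. The replicate numbers mark no shared batch in the labels, but deviations of same-numbered keratinocyte libraries from their group means correlated across 12515 genes (Pearson r = 0.558, over 2 pairs). Between keratinocytes alone and activated T cells, which are different cell types, r was 0.243 across 12666 genes. With the replicate block 2 genes were called, and with the block and the length trend removed 216 (100 higher and 116 lower), none of them a member. No paired analysis was possible for the T cells because the labels number the libraries of only 1 of their groups.

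Genes called in T cells, in keratinocyte medium versus activated, were 776 by edgeR, 1947 by DESeq2, 1945 without a filter, 1242 with the length trend removed and 24 to 1067 with 1 library left out. For co-cultured versus activated these were 1222, 2368 and 2425 (no filter), and 266 to 1093. For co-cultured versus keratinocyte medium they were 31, 87 and 141, then 0 with at least 10 counts in every library, 99 and 107 with limma (pseudocount 1 and 0.1), 83 with 10 libraries in the fit and 16 to 52. For keratinocytes alone versus activated T cells they were 4754, and 2394 to 4943 with 1 library left out. The interaction gave 76, 353 by DESeq2, 205 without a filter and 21 to 105. Lamb3 passed without a filter, in keratinocyte medium (adjusted p = 0.0466) and in co-culture (adjusted p = 0.0145) versus activated.

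Log2 fold changes of members that changed sign had all missed the threshold. With 1 library left out, those in keratinocyte medium versus activated ranged from -0.23 to 0.75 (Itga6), -2.28 to 6.18 (Itgb4), -0.39 to 0.30 (Itgb1), -2.17 to 1.28 (Dst) and -0.73 to 0.96 (Plec, -0.027 by limma with pseudocount 0.1). In co-cultured versus activated they ranged from -0.28 to 0.87 (Itga6), -0.57 to 0.12 (Itgb1), -1.22 to 0.75 (Lama3), -0.70 to 2.75 (Dst) and -0.45 to 0.74 (Plec, -0.039 by limma with pseudocount 0.1). In co-cultured versus keratinocyte medium they ranged from -0.58 to 0.64 (Itga6), -0.48 to 6.84 (Itgb4), -0.73 to 1.11 (Itga3), -0.14 to 0.80 (Lamb3) and -0.80 to 1.00 (Plec). Here Itga3 became 0.052 and Plec 0.35 with the length trend removed, and Itga3 0.062 by limma with pseudocount 0.1. The 8 members called between keratinocytes alone and activated T cells passed under all alternatives in which they were tested. With at least 10 counts in every library, Itgb4, Lama3, Col17a1 and Dst were filtered out and not tested. For Itgb1 in keratinocytes alone versus activated T cells, the range was -0.36 to 0.38, with -0.22 when the length trend was removed, -0.13 with the replicate block as well, -0.087 by library size, -0.025 with uniquely mapped reads, and by limma -0.062 with pseudocount 1 and -0.063 with 0.1. In the interaction Itga3 ranged from -1.49 to 0.36 and Itgb1 from -0.14 to 0.91. The cause of these shifts was not tested. Library size in place of TMM moved the median of all genes from -0.01 to -0.13 in keratinocyte medium versus activated, from -0.01 to -0.17 in co-cultured versus activated, and from 0.14 to -0.02 in keratinocytes versus T cells. Depth limits Itgb4, Lama3, Col17a1 and Dst in T cells, where a few reads decide their values.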
